A study of Mus musculus with 4 samples.

Results

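Nucleotide and polyamine synthesis genes supply a dividing cell with the building blocks of DNA and RNA and with the small cations that bind them. A set of 33 such genes, chosen by name with earlier results of these data known, was described here. All 33 were found among the 41342 named genes of the gene count table. The samples were CD43-depleted splenic B cells of strain 129 mice that carry a deletion in the 3′ regulatory region of the IgH locus, an enhancer cluster downstream of the heavy chain constant genes. In ΔleftPAL mice the hs3a and hs1,2 enhancers and the inverted repeats between them (IRIS) were deleted, whereas ΔIRIS mice lacked those repeats but kept hs1,2 and carried hs3a in inverted orientation. Each genotype gave 1 resting library, from freshly isolated cells, and 1 LPS library, from cells cultured for 48 h with 5 µg/ml lipopolysaccharide (LPS), a bacterial B-cell mitogen. Wild-type samples were not analysed here, so every library compared came from a mutant. The labels describe a pool of 4 animals, the study's methods describe 2 pooled RNAs from 4 mice per genotype, and a legend of the study gives 3 male mice aged 8 to 12 weeks. Both lines came from targeted cells of the embryonic stem cell line E14 (strain 129), the selection cassette was removed by a cre transgene, and the methods describe homozygous mice. How many targeted clones were bred is not given in the sources used here. With 1 library per group no difference had a replicate check, so no p-value is given for a group difference, and the 95% intervals (exact Clopper-Pearson, on the counts) cover counting error only.

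Purines are built stepwise on phosphoribosyl pyrophosphate (PRPP) up to inosine monophosphate (IMP), which is then turned into GMP or AMP. Pyrimidines are built as a free ring that is joined to PRPP to give UMP, from which CTP is made, and salvage enzymes recover free bases and nucleosides. Polyamines start from ornithine, which is decarboxylated to putrescine and lengthened to spermidine and spermine. These pathways are known to be induced when lymphocytes leave rest and grow.

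Several genes of these pathways are known targets of MYC, which binds the E-box CACGTG, so the promoters of the members were searched for these letters, which read the same on both strands. RefSeq promoters of mouse build GRCm38.p6, from 250 bases before to 50 after the start site, were at hand for 29 of the 33 members, and those of Pfas, Dhodh, Srm and Azin1 were not found in the table. The motif lay in the promoters of 5 of the 29, Paics, Atic, Impdh2, Nme1 and Sms, or 17.2%, against 8.09% of all 27025 genes with a promoter and 12.4% of the 7968 of them that were kept by count. In the shorter window from 150 bases before the start, 3 of 29 members held it (10.3%), against 9.81% of the genes kept. The share of the members was thus above that of the genes kept in the longer window and near it in the shorter, and a match marks letters, not a site in use. The matches are printed because they show how differently placed the same letters were in members that moved together, each as 30 bases on the gene's strand with the motif in capitals. The stretches are chr1:71557126-71557155 (plus strand, motif 7 bases before the start) for Atic, chr5:76951087-76951116 (plus strand, 203 bases before) for Paics, chr9:108560314-108560343 (plus strand, 110 bases before) for Impdh2, chr11:93968273-93968302 and chr11:93968037-93968066 (minus strand, 18 and 29 bases before separate starts) for Nme1, and chrX:157492466-157492495 (minus strand, 196 bases before) for Sms.
Atic: gaggaggggcgggacctcggggtCACGTGg
Paics: cgcctcggaaagCACGTGgagggacctgct
Impdh2: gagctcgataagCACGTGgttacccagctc
Nme1, outer start: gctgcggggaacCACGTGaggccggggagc
Nme1, inner start: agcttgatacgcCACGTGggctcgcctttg
Sms: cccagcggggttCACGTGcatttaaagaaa
By the GENCODE M21 annotation the motif of Sms lay outside any gene, that of the inner Nme1 start in an intron, and the others in 5′ untranslated exons. For Paics that exon belonged to its neighbour Ppat on the opposite strand. Ppat (chr5:76913249-76951578, minus strand) and Paics (chr5:76951307-76967509, plus strand) catalyse separate steps of purine synthesis, and their start sites were 276 bases apart with 272 bases of exon annotated on both strands.

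The libraries held 23615496 to 29776108 counts. CPM, the counts scaled to library size, were computed with edgeR's TMM factors. A mean of 50 counts or more over the libraries was required, which kept 11286 genes, 32 members among them but not Nme2. Summed over the 33 members, CPM was 1728 in resting ΔleftPAL, 3934 in LPS ΔleftPAL, 1836 in resting ΔIRIS and 4262 in LPS ΔIRIS. The B-cell markers Cd79a, Cd79b, Ms4a1, Pax5 and Cd22 each had at least 95.1 CPM in every library, and together they summed to 3162 and 2642 CPM at rest (ΔleftPAL, ΔIRIS) and to 1863 and 2024 after LPS. Cycling markers (8 of 8, such as Mki67) summed to 338 and 439 CPM at rest and to 3244 and 3702 after LPS. Markers of other cells were mainly seen at rest, where 6 erythroid genes summed to 41305 CPM in ΔleftPAL and 28663 in ΔIRIS, against 58.2 and 124 after LPS. Myeloid markers (7 of 8 in the table) summed to 294 and 392 CPM at rest and to 6.90 and 16.0 after LPS, T-cell markers to 52.9 and 44.0 against 18.5 and 17.3, and NK-cell markers to 8.23 and 5.64 against 0.111 and 0.136. Plasmablast markers (6 of 7 in the table) summed to 625 and 897 CPM at rest and to 1815 and 1279 after LPS. The part of these cells in the differences given below was not tested, and in bulk RNA fewer cells of a type and less RNA per cell cannot be told apart.

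After LPS culture most of these genes had higher CPM in both genotypes. Of the 32 members kept, 20 were at least 2-fold higher after LPS in ΔleftPAL, where 20.1% of all genes kept were, and 21 in ΔIRIS, where 21.6% were. In both genotypes 19 were at least 2-fold higher, against 17.3% of all genes kept, and only Ctps2 and Sat1 were at least 2-fold lower in both, against 13.1%. The median log2 ratio over the members was 1.43 in ΔleftPAL and 1.55 in ΔIRIS, against 0.12 and 0.13 over all genes kept. In an additive edgeR quasi-likelihood fit, in which the 2 genotypes stand in for replicates with 1 residual degree of freedom, 27 of 32 members were called higher after LPS (36.4% of all genes kept were), 2 lower, and Impdh1, Oaz1 and Azin1 were not called. That fit measures only how far the genotypes differed in their response.

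**Figure D1:**
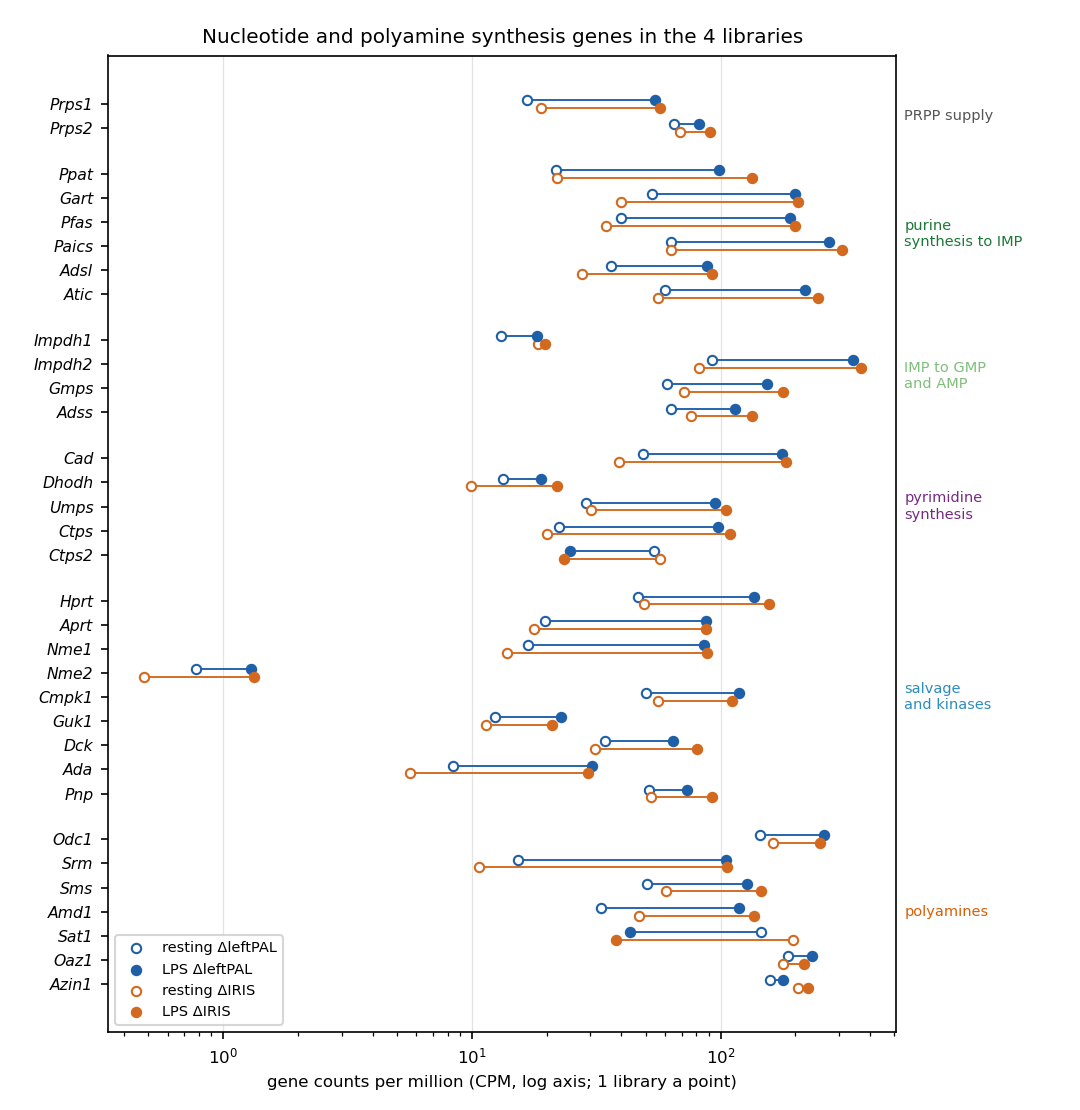
CPM of the 33 members in each of the 4 libraries (log axis), grouped by role, with open points for resting and filled points for LPS cells, blue for ΔleftPAL and orange for ΔIRIS. Within each genotype the filled points lie to the right of the open ones except for Ctps2 and Sat1, and Nme2, whose gene count is no measure of its level, is at 0.482 to 1.33 CPM.

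All 6 genes of the route from PRPP to IMP were at least 2-fold higher after LPS in both genotypes, with median log2 ratios of 2.00 in ΔleftPAL and 2.31 in ΔIRIS. Ppat, the amidotransferase of the committed step, had 21.7 CPM in resting and 98.2 in LPS ΔleftPAL cells, and 22.1 and 134 in ΔIRIS cells. Its log2 ratio was 2.15 (95% interval 2.04 to 2.31) in ΔleftPAL and 2.57 (2.48 to 2.72) in ΔIRIS, or 4.44-fold and 5.95-fold. The resting libraries were alike in Ppat and both LPS libraries were far above them. Pfas, the amidotransferase of a later step, had 39.8, 191, 34.7 and 200.1 CPM in the same order (resting ΔleftPAL, LPS ΔleftPAL, resting ΔIRIS, LPS ΔIRIS, kept below), with log2 ratios of 2.25 and 2.51. Paics, a bifunctional enzyme that acts just before Adsl, had 63.0, 272, 63.5 and 308 CPM and log2 ratios of 2.10 and 2.27. Gart, a trifunctional enzyme, had 53.3, 199, 39.7 and 206 CPM and log2 ratios of 1.89 and 2.36. In Gart the LPS libraries were within their counting intervals of each other, and resting ΔIRIS was the lowest library. Atic, which closes the IMP ring, had 59.6, 218, 56.0 and 246 CPM and log2 ratios of 1.87 and 2.13. Adsl, a lyase used on the way to both IMP and AMP, had the smallest LPS ratios of the 6, 1.26 and 1.71, with 36.4, 87.9, 27.9 and 92.1 CPM. By the length-scaled kallisto values (TPM) Adsl was below 2-fold in ΔleftPAL, at 0.78.

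PRPP itself is made by the synthetases Prps1 and Prps2, which differed in their LPS ratio. Prps1 had 16.6, 54.8, 19.0 and 57.4 CPM, with log2 ratios of 1.69 (1.56 to 1.88) and 1.57 (1.45 to 1.73). Prps2 had 64.9, 82.3, 69.0 and 90.6 CPM, with log2 ratios of 0.34 (0.25 to 0.44) and 0.39 (0.31 to 0.48). Below IMP, the guanine branch was also uneven. Impdh2, the dehydrogenase that commits IMP to GMP, had 92.9, 341, 82.3 and 365 CPM and log2 ratios of 1.87 and 2.14. Impdh1, its isoenzyme, had 13.1, 18.2, 18.5 and 19.7 CPM, and its log2 ratio was 0.47 (0.27 to 0.69) in ΔleftPAL and 0.09 (-0.08 to 0.26) in ΔIRIS. The sign of Impdh1 depended on the scaling, since the upper quartile factors put it at -0.07 in ΔIRIS and the length-scaled values at -0.43 and -0.59. Gmps, which aminates the product of IMPDH to GMP, had 61.2, 154, 71.1 and 179 CPM, 2.50-fold higher after LPS in both genotypes. Adss, the entry to AMP, had 63.3, 115, 76.4 and 134 CPM, 1.80-fold and 1.74-fold higher.

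Of the 5 pyrimidine genes, Cad, Umps and Ctps were at least 2-fold higher after LPS in both genotypes, Dhodh in ΔIRIS only, and Ctps2 was at least 2-fold lower in both. Cad, which carries the first 3 activities of the pathway in 1 protein, had 49.0, 176, 39.2 and 183 CPM and log2 ratios of 1.84 and 2.21. Dhodh, the mitochondrial dehydrogenase of the pathway, had 13.3, 19.0, 9.91 and 21.9 CPM and log2 ratios of 0.50 (0.31 to 0.72) and 1.11 (0.94 to 1.35). Its 2-fold call in ΔIRIS was lost with upper quartile factors (0.96), by TPM (0.88) and with 5 CPM added to each value (0.85). Umps, which makes UMP, had 28.7, 95.3, 30.3 and 105 CPM and log2 ratios of 1.71 and 1.78. The CTP synthetases moved apart. Ctps had 22.4, 97.4, 20.02 and 109 CPM, 4.27-fold and 5.36-fold higher after LPS. Ctps2 had 54.2, 24.8, 57.3 and 23.5 CPM, 2.16-fold and 2.41-fold lower. Its 2-fold call in ΔleftPAL was lost from estimated counts (-0.94) and with 5 CPM added (-0.99). In either genotype the counting intervals of both ratios left out 0.

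**Figure D2:**
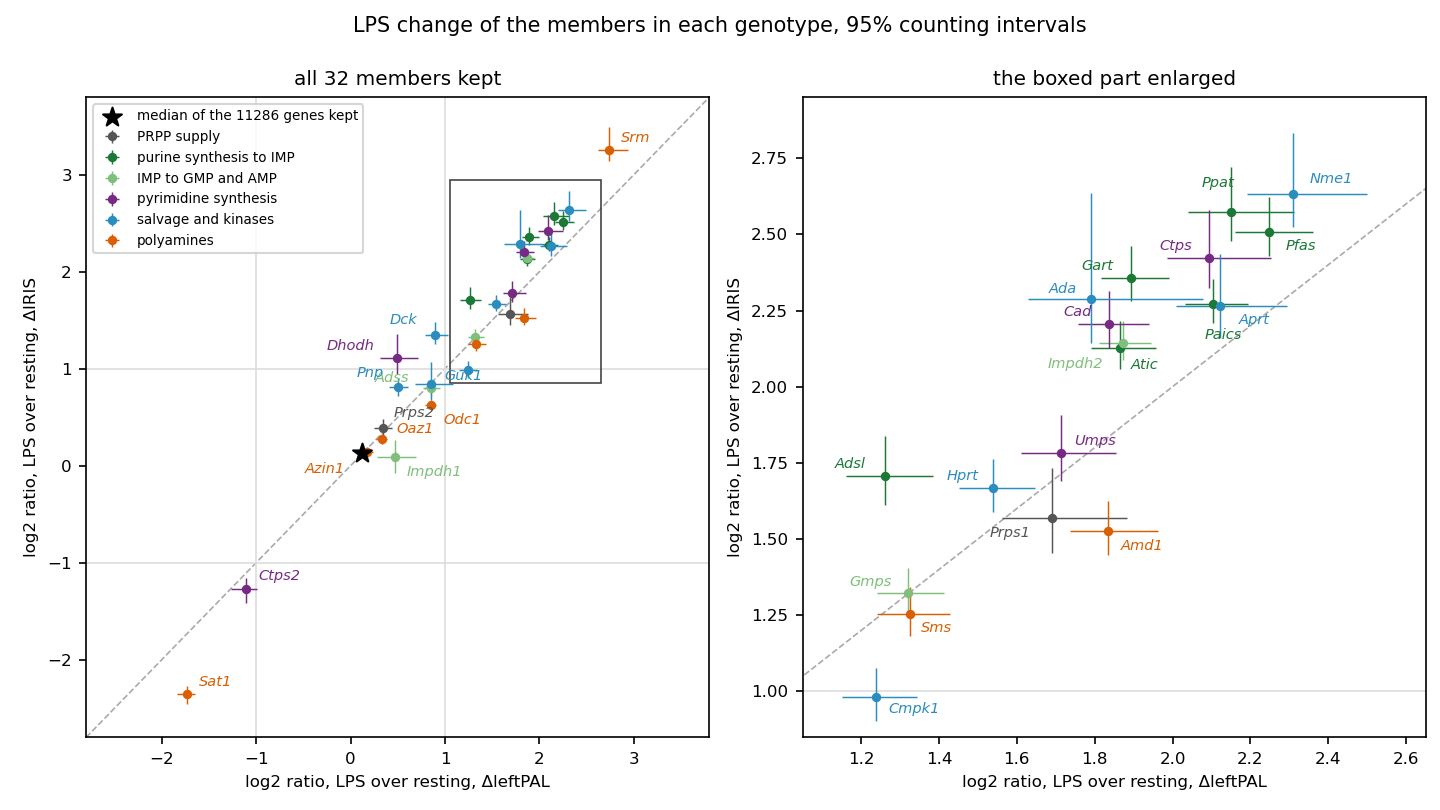
Log2 ratio of LPS over resting CPM in ΔleftPAL (horizontal axis) and ΔIRIS (vertical axis) for the 32 members kept, with 95% counting intervals as bars, colours by role, lines at 2-fold, a dashed line of equal ratios and a star for the median of all 11286 genes kept; the right panel enlarges the box. Srm is the highest member, Sat1 and Ctps2 are the 2 at least 2-fold lower, and all 6 purine genes up to IMP lie above the dashed line.

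TPM values from kallisto, which correct for transcript length, allow levels to be compared between genes of 1 step. Ctps made up 16.9% of the summed TPM of Ctps and Ctps2 in resting ΔleftPAL and 66.5% after LPS, and 14.9% and 71.8% in ΔIRIS. Their sum was 67.7 and 66.8 TPM at rest and 63.5 and 63.4 TPM after LPS, on a scale where the median log2 LPS ratio of all genes was -0.27 and -0.26. Impdh2 held 86.4% of the summed IMPDH TPM in resting ΔleftPAL, 84.3% in resting ΔIRIS, and 96.0% and 96.3% after LPS. Prps1 held 33.1% and 32.8% of the Prps1 and Prps2 sum at rest and 52.8% and 51.5% after LPS, and that sum went from 43.0 and 42.5 TPM to 66.8 and 67.4 TPM. By TPM the highest members at rest were Oaz1, Sat1 and Nme2 in both genotypes. After LPS they were Nme2, Oaz1 and Impdh2, while Sat1 was 19th in ΔleftPAL and 20th in ΔIRIS.

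**Figure D3:**
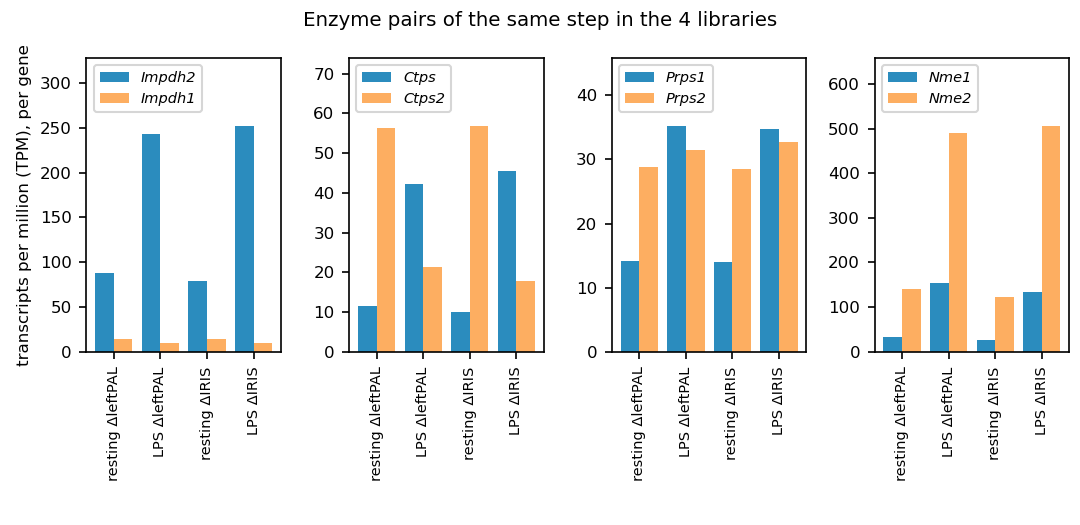
Summed kallisto TPM per gene in the 4 libraries for pairs of enzymes that catalyse the same step, Impdh2 and Impdh1, Ctps and Ctps2, Prps1 and Prps2, and Nme1 and Nme2, each panel with its own axis from 0. Ctps and Ctps2 change places between rest and LPS, whereas the Nme pair keeps its order, with Nme1 at 17.5% to 24.0% of the sum.

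Among the salvage enzymes and kinases kept, 4 of 8 were at least 2-fold higher after LPS in both genotypes. Aprt, which recovers adenine, had 19.7, 87.6, 17.9 and 87.8 CPM and log2 ratios of 2.12 and 2.27. Hprt, which recovers hypoxanthine and guanine, had 46.6, 136, 49.1 and 157 CPM and log2 ratios of 1.54 and 1.67. Ada, the adenosine deaminase, had 8.43 CPM in resting ΔleftPAL and 5.64 in resting ΔIRIS, against 30.4 and 29.5 after LPS. By TPM its log2 LPS ratio was 0.86 in ΔleftPAL, below 2-fold, where gene counts gave 1.79, and its gene count was 0.70 of the estimated count in resting ΔleftPAL. Pnp, which splits purine nucleosides, was below 2-fold in both genotypes, with 51.5, 73.1, 52.5 and 92.2 CPM. Dck, the deoxycytidine kinase, had 34.4, 64.5, 31.2 and 80.3 CPM and was 1.86-fold and 2.55-fold higher. Cmpk1, which phosphorylates UMP and CMP, had 49.99, 119, 56.1 and 111 CPM and lay on either side of the threshold, at 2.36-fold and 1.98-fold. From estimated counts Cmpk1 was above 2-fold in both genotypes (log2 1.36 and 1.14), and by TPM below it in both (0.96 and 0.37). Guk1, the guanylate kinase, had 12.4, 22.9, 11.5 and 20.9 CPM, 1.81-fold and 1.79-fold higher. From estimated counts Guk1 was 2.01-fold higher in both genotypes, and Dck was 2.02-fold higher in ΔleftPAL.

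Nme1 and Nme2 encode nucleoside diphosphate kinases, which make triphosphates, and lie next to each other on chromosome 11. Nme1 had 16.9, 85.9, 13.8 and 88.4 CPM, with log2 ratios of 2.31 and 2.63. Nme2 had 19, 35, 14 and 39 counts, too few for the threshold. By kallisto, however, Nme2 was among the most abundant members, with 139.9 and 123.7 TPM at rest and 489 and 507 TPM after LPS. Of its 1171 exon bases, 573 (48.9%) were also annotated on the same strand to Gm20390, a gene that spans both, as were 418 of 3342 bases (12.5%) of Nme1. The gene counts were 0.45 to 0.51 of kallisto's estimated counts for Nme1 and at most 0.01 for Nme2. The part of the shared bases in these low gene counts was not tested. From estimated counts the log2 LPS ratios were 2.54 and 2.85 for Nme1 and 2.15 and 2.45 for Nme2. Beside these estimates the gene count of Nme2 is no measure of its level, and that of Nme1 a partial one.

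The polyamine genes were mixed, with 3 of 7 at least 2-fold higher in both genotypes, 1 lower and 3 neither. Srm, the spermidine synthase, had the highest LPS ratio of the 32 members in both genotypes, with 15.4, 105, 10.7 and 106 CPM. Its log2 ratio was 2.74 (2.62 to 2.93) in ΔleftPAL and 3.26 (3.15 to 3.49) in ΔIRIS, or 6.66-fold and 9.56-fold, and 256 and 119 of all genes kept had a larger one. Amd1, which makes the aminopropyl donor, had 33.0, 119, 47.2 and 137 CPM, 3.57-fold and 2.88-fold higher. Its gene counts were 0.74 to 0.76 of the estimated counts in all 4 libraries. Sms, the spermine synthase, had 50.7, 128, 60.6 and 145 CPM, 2.51-fold and 2.39-fold higher, but below 2-fold by TPM in both genotypes, at log2 ratios of 0.99 and 0.75. Odc1, ornithine decarboxylase, which opens the pathway, was below 2-fold by gene counts, with 145, 261, 163 and 252 CPM, and at a log2 ratio of 1.022 in ΔleftPAL from estimated counts. Srm and Sms, downstream of Odc1, thus had larger LPS ratios than Odc1 itself, and the counting intervals did not overlap in either genotype.

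Regulators of ornithine decarboxylase had LPS ratios close to the median of all genes by gene counts. Oaz1, the antizyme that inhibits the enzyme and sends it to the proteasome, had 186, 233, 179 and 216 CPM, 1.25-fold and 1.21-fold higher. Azin1, which binds antizyme and frees the decarboxylase, had 159, 179, 204 and 225 CPM, 1.13-fold and 1.10-fold higher. Its LPS ratio was below 1 with upper quartile scaling (log2 -0.01 and -0.02) and by TPM (-0.27 and -0.37). The medians of all genes were -0.06 and -0.03 with upper quartile scaling and -0.27 and -0.26 by TPM. By gene counts Azin1 differed more between the genotypes than between rest and LPS, but by TPM the genotype ratios, 0.18 at rest and 0.09 after LPS, were the smaller ones. On that scale the median genotype ratios of all genes were -0.07 at rest and -0.05 after LPS. Which of the Azin1 ratios was larger thus depended on the scale.

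Sat1, the acetyltransferase that opens polyamine breakdown, moved against the synthases. It had 145 CPM in resting and 43.2 in LPS ΔleftPAL cells and 196 and 37.9 in ΔIRIS cells, with log2 ratios of -1.74 (-1.84 to -1.65) and -2.35 (-2.46 to -2.28), or 3.33-fold and 5.11-fold lower. Only 812 of all genes kept in ΔleftPAL and 611 in ΔIRIS had a lower ratio. The gene (chrX:155213132-155216449, minus strand) is annotated with transcripts of several classes, among them a nonsense-mediated decay transcript with an extra exon of 110 bases at chrX:155215121-155215230, between the third and the fourth exon of the coding form. In kallisto's estimated counts the protein-coding share was 40.1% and 38.9% at rest and 69.9% and 69.1% after LPS. The retained-intron share was 44.9% and 42.1% at rest and 19.1% and 24.3% after LPS, and the nonsense-mediated decay transcript held 14.9% and 19.0% at rest and 10.99% and 6.54% after LPS. In estimated counts, coding Sat1 transcripts went from 1383 to 823 in ΔleftPAL and from 2181 to 768 in ΔIRIS, while retained-intron transcripts went from 1550 to 225 and from 2359 to 271. Both classes had fewer estimated counts after LPS, which are not scaled for depth, and the retained-intron class had lost the larger part. Myeloid and erythroid markers were lower after LPS too, and their part in Sat1 was not tested.

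Lower retained-intron shares after LPS were also seen in other genes. Of 12 members with at least 5% of estimated counts in retained-intron transcripts at rest in both genotypes, 11 had a lower share after LPS in both, and so had 80.6% of all 2779 such genes with at least 50 estimated counts in each library. Choosing genes by a high share at rest favours a fall after LPS. With genes chosen instead by a mean share of at least 5% over the 4 libraries, a choice made after the data were seen, 8 of 9 members and 77.4% of 2751 genes had a lower share in both. The median share of the 12 members chosen by their share at rest was 15.04% and 13.7% at rest and 4.28% and 4.29% after LPS. Ppat was the exception, with 12.8% and 13.6% in ΔleftPAL and 15.2% and 8.63% in ΔIRIS. In Sms the nonsense-mediated decay transcript moved the other way, from 25.2% to 40.4% in ΔleftPAL and from 26.1% to 34.1% in ΔIRIS. Adsl had most of its estimated counts in nonsense-mediated decay transcripts in all 4 libraries, 58.8% and 60.4% at rest and 50.7% and 50.5% after LPS. These shares are model estimates from short reads with no replicate.

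**Figure D4:**
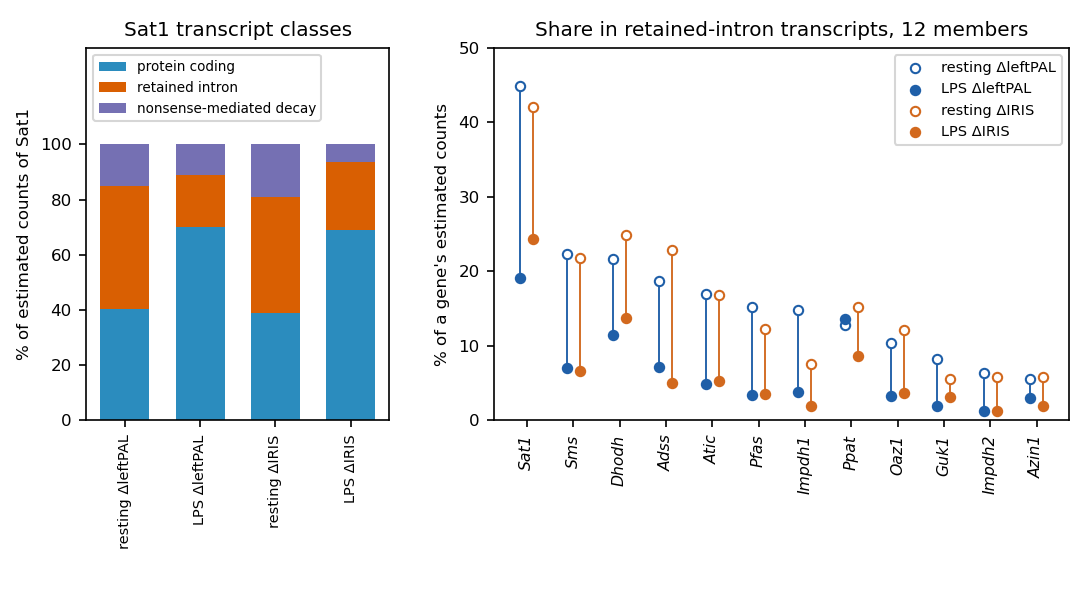
Left, share of the estimated counts of Sat1 in protein-coding, retained-intron and nonsense-mediated decay transcripts in the 4 libraries. Right, share in retained-intron transcripts of the 12 members with at least 5% at rest, open points resting and filled points LPS; the filled points are lower in both genotypes for 11 of the 12, the exception being Ppat.

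Between the genotypes, no member was 2-fold apart by gene counts at rest, where 2.85% of all genes kept were, nor after LPS, where 1.98% were. None was 1.5-fold apart by them either, against 11% at rest and 6.46% after LPS. At rest Ada was more than 1.5-fold apart from estimated counts, at -0.76, and by TPM Ada, Cad and Dhodh were, at -1.01, -0.62 and -0.62. By gene counts the median ratio of the 32 members between the genotypes (ΔIRIS over ΔleftPAL, log2) was 0.02 at rest and 0.10 after LPS. At rest the members lowest in ΔIRIS were Ada at -0.54 (-0.89 to -0.28), Srm at -0.51 (-0.75 to -0.31), Gart at -0.42 (-0.54 to -0.31) and Dhodh at -0.41 (-0.66 to -0.19). Highest in ΔIRIS were Amd1 at 0.51 (0.39 to 0.64), Impdh1 at 0.48 (0.30 to 0.70), Sat1 at 0.43 (0.37 to 0.49) and Azin1 at 0.36 (0.31 to 0.42). After LPS the largest differences were those of Ppat at 0.44 (0.37 to 0.52), Pnp at 0.33 (0.25 to 0.42), Azin1 at 0.33 (0.28 to 0.39), Dck at 0.31 (0.23 to 0.41) and, in the other direction, Sat1 at -0.19 (-0.31 to -0.07). At rest the counting interval left out 0 for 20 of 32 members, against 57.3% of all genes kept, and lay above 0 (higher in ΔIRIS) for 10 of 32, against 30.3% of all genes kept. After LPS it left out 0 for 21 of 32, against 47%, and lay above 0 for 17 of 32, against 27.6%. A sampling interval without animals does not show a genotype difference, and the genotype, the animals and the preparation of each library cannot be told apart.

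**Figure D5:**
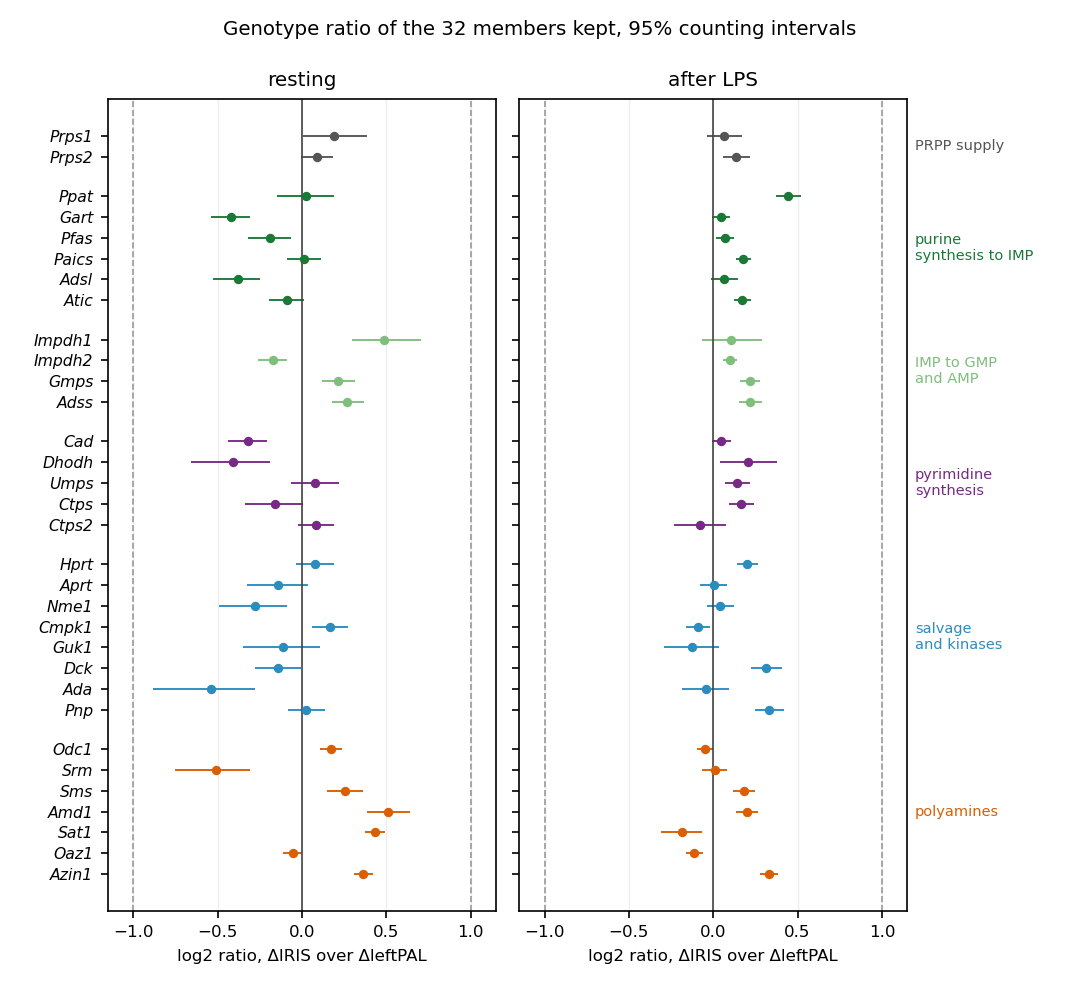
Log2 ratio of ΔIRIS over ΔleftPAL for the 32 members kept, at rest (left) and after LPS (right), with 95% counting intervals and dashed lines at 2-fold. No member reaches 2-fold, and the points are more widely spread at rest, from -0.54 to 0.51, than after LPS, from -0.19 to 0.44.

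The LPS ratio was larger in ΔIRIS than in ΔleftPAL for 16 of the 19 members at least 2-fold higher in both genotypes, the exceptions being Prps1, Sms and Amd1, and for 61.3% of all 1958 such genes. The difference of the log2 ratios was positive for all 6 purine genes up to IMP, from 0.17 (0.06 to 0.28) in Paics to 0.46 (0.34 to 0.59) in Gart. Over the 32 members its interval lay above 0 in 15, against 24.7% of all genes kept, below 0 in 5 (Impdh1, Cmpk1, Odc1, Amd1 and Sat1), against 24.4%, and held 0 in 12. Here too the shares were not matched for depth. The largest differences were -0.62 (-0.75 to -0.49) in Sat1, 0.61 (0.35 to 0.92) in Dhodh, 0.52 (0.31 to 0.77) in Srm and 0.50 (0.21 to 0.86) in Ada. In Srm, Ada and Gart the LPS libraries of the genotypes were within counting error of each other, and the difference came from the resting libraries.

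Other genes around these pathways, some of which break down or use their products, were read from 6 lists of 101 genes. Of these, 71 were kept by count, with 33 at least 2-fold higher after LPS in both genotypes (17.3% of all genes kept were), 10 lower (13.1%) and 28 neither. The one-carbon and glycine genes, which supply carbon for purines and thymidylate, had 10 of 11 higher and none lower, and their median log2 ratios were 2.13 and 2.31. Shmt1, a serine hydroxymethyltransferase, had 8.68, 91.8, 7.02 and 117 CPM. Gcat, of glycine metabolism, had 1.47, 19.7, 0.722 and 25.5 CPM. Among 13 deoxynucleotide genes 9 were higher, led by Rrm2, a subunit of ribonucleotide reductase, with 16.0, 290.2, 23.6 and 309 CPM. Tyms, the thymidylate synthase, had 5.73, 90.6, 6.29 and 82.9 CPM, and Dut, which removes dUTP, had 18.8, 188, 15.5 and 192 CPM. The 3 lower ones were Tk2 and Dguok, the mitochondrial deoxynucleoside kinases, with 57.1, 8.80, 48.3 and 7.88 CPM for Tk2 and 18.1, 8.05, 16.2 and 7.47 CPM for Dguok, and Samhd1, which degrades deoxynucleotides, with 282, 122, 252 and 123 CPM.

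Of 16 other kinases and salvage genes, 6 were higher and 1 lower. Uck2, a uridine-cytidine kinase, had 6.92, 69.1, 13.6 and 74.3 CPM, Adk, the adenosine kinase, had 7.21, 41.9, 8.77 and 47.6 CPM, and Ak6 had 3.19, 15.5, 3.99 and 19.9 CPM, whereas Uckl1 was the lower one with 48.7, 15.7, 32.9 and 15.9 CPM. Of 14 breakdown and interconversion genes 2 were higher, Itpa with 15.5, 60.9, 14.9 and 67.7 CPM and Ampd2 with 17.1, 35.5, 11.97 and 33.1 CPM. The 4 lower ones included Gda, the guanine deaminase, with 3113 and 4219 counts at rest against 6 and 3 after LPS. Ampd3, an AMP deaminase, had 13.0, 1.45, 12.7 and 1.09 CPM and Xdh, the xanthine dehydrogenase, 6.30, 0.779, 4.51 and 0.307 CPM. Myeloid and erythroid markers, given above, were lower after LPS too, and their part in Gda, Ampd3 and Xdh was not tested. Of 3 nucleoside transporters none was at least 2-fold higher in both genotypes and Slc28a2, which takes up purine nucleosides, was lower with 151, 42.6, 122 and 42.9 CPM.

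In the list of other polyamine and methionine cycle genes, 6 of 14 were at least 2-fold higher in both genotypes, 1 lower and 7 neither. Eif5a, the translation factor that receives its hypusine from spermidine, had 106, 495, 117 and 546 CPM. Mtap, which recycles the by-product of the synthases, had 13.7, 64.3, 15.3 and 81.3 CPM, and Ahcy, of the methionine cycle, 29.7, 126, 21.9 and 141 CPM. Smox, the spermine oxidase, was lower, with 19.2, 0.817, 21.4 and 0.751 CPM. The genes of this list were named for their LPS change, so Smox and Sat1 do not stand for polyamine breakdown. Myeloid and erythroid markers were lower after LPS too, and their part in Smox was not tested. None of the 71 list genes kept was 2-fold apart between the genotypes on the log2 scale of CPM + 0.5, at rest or after LPS, although some low values, such as the CPM of Gcat at rest, were without the added value.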

How the data were processed

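RNA-seq libraries of ribosome-depleted total RNA (stranded kit, paired 150-base reads) were analysed. The authors aligned reads with STAR 2.4.0a to mm10 with Ensembl 77 and deposited gene counts from featureCounts (Subread 1.4.6-p1), by gene name, with strand setting 1 and the primary alignment of multimapping reads, so genes with near-identical copies are uncertain. They also deposited kallisto 0.42.3 estimated counts and TPM per transcript. Gene counts divided by kallisto's estimates had a median over genes of at least 0.985 in each library. Rows without a gene name, 0.00876% to 0.0264% of counts, were left out of library sizes, and 0 sample columns were unused.

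From the counts, CPM on TMM effective library sizes (edgeR 4.0.16) and log2 ratios of CPM + 0.5 were computed, with exact 95% Clopper-Pearson intervals converted to ratios and computed without the added 0.5. A call was a ratio of at least 2-fold. Groups held 1 library each, so no replicate was averaged; the only test was an alternative, an additive edgeR fit (genotype and LPS) called at an adjusted p under 0.05. The 3 counts used as a floor are 0.102 to 0.123 CPM. Estimated counts and TPM were summed per gene by gene name, and 144 of 156 transcripts of the members matched GENCODE M21 for their class. Scripts were tested on simulated counts. All members were named, and in each further list up to 3 genes per direction with the largest LPS change. A gene that this rule names and a marker are not reported here. Members and lists were chosen with earlier results of these data known. Alternatives were other scalings (DESeq2 1.42.0 size factors, upper quartile, total counts), kallisto values, other thresholds and the added value.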

Additional observations from a re-analysis of the deposited data

How the results depend on the processing

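Over all settings tried, 134 of 151 summary values stayed within the limit set for them, and no member's called direction turned. For a count the limit was 1.5-fold, and for a ratio it was set by the width of the counting intervals. Ratios of single members were less stable, with 678 within the limit and 246 beyond it. By TPM the LPS ratios of 32 members in ΔleftPAL and 33 in ΔIRIS moved beyond it, and with upper quartile factors those of 28 and 27. The median log2 LPS ratio of the members, 1.43 in ΔleftPAL and 1.55 in ΔIRIS, was 1.25 and 1.39 with upper quartile factors, 1.09 and 1.28 from TPM, 1.33 and 1.41 with 5 CPM added, and 1.71 in ΔIRIS from estimated counts. TPM moved the median of all genes to -0.27 and -0.26, and upper quartile factors to -0.06 and -0.03. The count of members lower after LPS, 2, was 1 at 3-fold (in each genotype and in both), 1 with 5 CPM added and 1 from estimated counts (in ΔleftPAL and in both), where Ctps2 was at -0.94. Of the other pathway genes 6 in place of 10 were lower in both genotypes at 3-fold and with 5 CPM added. At rest 1 member, Ada, was 2-fold apart between genotypes by TPM, and none by counts. The cause was not tested. The number of members at least 2-fold higher in both genotypes ran over the scalings from 17 by TPM to 23 from estimated counts. By TPM Adsl, Ada and Sms were not called, and from estimated counts Cmpk1, Guk1 and Dck were called as well. Both kallisto values counted 33 members, with Nme2 among those called. At 3-fold the number was 13 and at 1.5-fold 24. The share of all genes kept, 17.3%, holds for the main setting only, so these other counts cannot be read against it. The labels carry no replicate numbers, so the additive fit, which pairs rest with LPS within each genotype, was the only paired analysis. Ratios of Ada, Dhodh, Impdh1 and Guk1 rest on 164 to 864 counts a library, and differences smaller than their intervals were not detectable at this depth.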
